A study of Mus musculus with 2 samples.

Results

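DNase I cuts DNA where chromatin is open, and DNase-seq counts those cuts along the genome. The windows described here are stretches of the mouse autosomes that hold genes and in which neither of 2 hippocampal DNase-seq libraries had a peak. Autosomes of the mm10 assembly were tiled in 200-kb windows, and a window was kept when it held the 5′ end of at least 1 protein-coding gene of GENCODE M21 and overlapped no deposited peak. Of 6828 windows that held such a 5′ end, 111 had no peak, or 1.63%, and these are called closed windows below. They held the 5′ ends of 369 of 20807 autosomal protein-coding genes, or 1.77%. The windows were chosen by measured values, the peak lists of both libraries, so the absence of peaks is not a finding, and every value from the same reads is given as a description without a test.

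Both libraries were made from hippocampus of 14-day-old B6CASTF1/J females, first-generation hybrids of C57BL/6J and CAST/EiJ, and each label names 3 females. They are numbered as biological replicates 1 and 2 of a single group, so no conditions could be compared. The labels give both libraries a common donor identifier and do not say whether separate animals or pools were used, so they may share animals and the spread between them may be technical in part. The genome is that of C57BL/6J, and how fragments of the CAST/EiJ alleles were placed was not tested.

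Many of the genes concerned belong to families that arose by repeated tandem duplication. Olfactory receptors detect odours in the main olfactory epithelium, where each neuron expresses a single receptor gene, and vomeronasal receptors detect pheromones in the vomeronasal organ. Such families lie in dense arrays in the mouse genome and are largely silent outside their own sensory neurons. Recently duplicated arrays also hold near-identical copies, between which short reads cannot be assigned.

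The sequences below show the kinds of DNA found in closed windows. The first 3 are the 250 bases upstream of vomeronasal 1 receptor genes in a run of 4 closed windows on chromosome 7 (RefSeq, GRCm38.p6). They are shown because most copies in this run are closely alike, and each RefSeq start is also the GENCODE 5′ end. Their gene models are short, at 924, 924 and 921 bp in the order shown. Whether their annotated 5′ ends are transcription starts was not tested. Capitals mark bases that differ from Vmn1r130.
Vmn1r130, chr7:21511530-21511779, plus strand: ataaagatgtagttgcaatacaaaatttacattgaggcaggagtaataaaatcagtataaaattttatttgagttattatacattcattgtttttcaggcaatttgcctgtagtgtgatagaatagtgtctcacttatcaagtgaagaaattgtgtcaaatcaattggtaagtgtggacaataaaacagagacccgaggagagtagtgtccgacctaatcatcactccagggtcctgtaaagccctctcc
Vmn1r135, chr7:21832101-21832350, plus strand: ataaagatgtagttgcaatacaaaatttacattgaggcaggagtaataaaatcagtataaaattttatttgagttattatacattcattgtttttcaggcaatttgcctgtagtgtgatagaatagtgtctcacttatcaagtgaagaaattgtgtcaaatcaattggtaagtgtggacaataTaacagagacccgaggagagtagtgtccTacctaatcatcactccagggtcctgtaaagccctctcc
Vmn1r131, chr7:21546091-21546340, minus strand: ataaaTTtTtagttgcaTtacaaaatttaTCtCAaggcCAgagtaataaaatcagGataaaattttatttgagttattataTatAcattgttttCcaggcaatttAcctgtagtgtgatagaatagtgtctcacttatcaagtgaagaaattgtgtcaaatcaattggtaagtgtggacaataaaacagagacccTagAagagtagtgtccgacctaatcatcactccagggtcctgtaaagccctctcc

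Vmn1r135 differed from Vmn1r130 at 2 of 250 bases and Vmn1r131 at 17. Vmn1r137 had the same 250 bases as Vmn1r130, and Vmn1r138 the same as Vmn1r131. Of the 28 pairs that the 8 receptors of this run with a RefSeq promoter form, 21 differed at 30 bases or fewer. The rest were the pairs with Vmn1r142, which differed at 162 to 167 bases. Bases were compared position by position, without gaps. RefSeq promoters matched 261 of the 369 genes by symbol.

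The next sequence lies upstream of the RefSeq start of an olfactory receptor in the closed window with the most genes. It stands for closed windows in which most 36-base words occur once in the genome. Among the receptors of that window its RefSeq start lies nearest to the GENCODE 5′ end, 13 bp from it. It holds no CpG and has a GC content of 36.4%.
Olfr147, chr9:38401461-38401710, plus strand: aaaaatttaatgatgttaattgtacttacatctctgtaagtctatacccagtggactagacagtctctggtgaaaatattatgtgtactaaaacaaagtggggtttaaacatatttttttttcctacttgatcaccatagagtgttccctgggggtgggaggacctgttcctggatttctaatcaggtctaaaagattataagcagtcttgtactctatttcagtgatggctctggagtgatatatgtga

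The last pair of sequences holds runs of bases at which the authors' false discovery rate (FDR) of the cut rate was under 0.05. These are the 2 longest runs of closed windows named below in which every 36-base word is unique in the genome. A run at Skint1 in replicate 1 was as long as the second, which has the lower FDR. Capitals mark the run, with 50 bases on either side.
Pramef20 window, chr4:144380834-144380980, plus strand: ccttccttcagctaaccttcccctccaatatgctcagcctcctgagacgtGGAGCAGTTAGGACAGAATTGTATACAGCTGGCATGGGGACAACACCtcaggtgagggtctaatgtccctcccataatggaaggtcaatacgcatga
Skint3 window, chr4:112309978-112310123, plus strand: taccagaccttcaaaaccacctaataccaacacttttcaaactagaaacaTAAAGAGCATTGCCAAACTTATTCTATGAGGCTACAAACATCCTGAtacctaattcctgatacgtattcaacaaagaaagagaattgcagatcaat

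The first run is 47 bases long and lies 2951 bp from the start of Pramef20, a member of the PRAME family. It was seen in replicate 1. The second is 46 bases long, was seen in replicate 2 and lies 77783 bp from the start of Skint3, a relative of Skint1, which acts in the thymic selection of skin T cells. Neither overlapped a run of the other library.

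Olfactory receptors were the largest named family of receptors in closed windows. They accounted for 89 of the 369 genes (24.1%), against 5.42% of all autosomal protein-coding genes, and lay in 14 of the 202 windows that hold an olfactory receptor. Vomeronasal 1 receptors followed with 47 genes (12.7% against 1.00%) in 18 of 66 windows, and vomeronasal 2 receptors with 24 genes (6.50% against 0.572%) in 12 of 71 windows. The 6 taste receptors of closed windows, the bitter receptors Tas2r104, Tas2r105, Tas2r106, Tas2r107, Tas2r114 and Tas2r130, lay in a single window on chromosome 6 (131600001 to 131800000). With 1 formyl peptide receptor, genes with symbols of chemosensory receptors made up 167 of the 369 genes.

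As shares of the families, 7.89% of olfactory, 22.6% of vomeronasal 1, 20.2% of vomeronasal 2 and 15.8% of taste receptors had their start in a closed window. Chemosensory receptors as a whole were poor in peaks at their annotated starts, with the 167 of closed windows counted among them. A peak lay within 500 bp of the start in both libraries for 9 of all 1515 chemosensory receptors (0.594%), against 58.5% of all protein-coding genes. In either library it did so for 35 of the 1515, against 13445 of all 20807 genes. Windows that hold a vomeronasal 1 receptor, closed ones included, had a median of 2 peaks in replicate 1 and 1 in replicate 2. Those with an olfactory receptor had 2 and 4. The 304 windows with a chemosensory receptor that were not closed had medians of 2.5 and 4. Over all gene windows the medians were 11 and 16.

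Secreted signals of rodent scent were a second group. Closed windows held 11 of 34 androgen-binding secretoglobins (subunits of a salivary and lacrimal protein) in 5 windows of chromosome 7. They held 6 of 22 major urinary protein genes, lipocalins that carry pheromones in urine. These were Mup1, Mup9, Mup10, Mup13, Mup14 and Mup22, in 3 windows of chromosome 4. Unread sequence (N), in which no peak can lie, made up 75.2% of the Mup22 window and 25% of that of Mup13 and Mup14. The Skint family had 5 of its 11 members in closed windows, the highest share among families of at least 5 such genes. The PRAME family, with oocyte genes such as Oog1, Oog2 and Oog3, followed with 6 of 15 members.

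Predicted genes with a Gm symbol were the largest class by number, with 112 of 1226 genes. Another 6 of 539 genes had RIKEN clone names (1.11%, against 1.77% of all genes). Of 385 zinc finger genes named Zfp, 9 were in closed windows, and this share of 2.34% is near that of all genes. Of the 9, 5 (Zfp965, Zfp966, Zfp967, Zfp968 and Zfp969) lay in a single run on chromosome 2. Of all 385, 315 had a peak within 500 bp of the start in both libraries. Of the 16142 genes in none of the 42 families, 31 were in closed windows (0.192%, against 1.77% of all genes). Among these 31 were the chemokine genes Ccl19, Ccl21a, Ccl21b and Ccl27b, the Ceacam genes of chromosome 7 and the embryonic genes Zscan4b, Zscan4c and Zscan4d. Smaller families, named after their values were seen, included the placental cathepsins Ctsj, Ctsq and Ctsr, the NK cell receptors Klra5 and Klra17 and the sulfotransferases Sult2a7 and Sult2a8.

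Families with no gene in a closed window included 53 keratins, 64 defensins, 20 type I interferons, 60 serpins, 92 potassium channel genes, 57 clustered protocadherins and 75 ribosomal protein genes. With 1.77% of all genes in closed windows, few are to be found in families of this size, and nothing is read from these counts of 0.

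The tissue label was checked at the starts of marker genes. A peak lay within 500 bp of the 5′ end in both libraries for 11 of 13 pan-neuronal genes, 9 of 14 genes of excitatory hippocampal neurons, 5 of 14 of inhibitory neurons, 7 of 10 of astrocytes, 6 of 10 of the oligodendrocyte lineage and 4 of 10 of microglia. It did so for none of 12 liver, 11 blood, 10 epithelial and 12 germline genes, for 1 of 12 muscle genes and for all 10 housekeeping genes. Over all autosomal protein-coding genes the share was 58.5%. The lists of excitatory neurons and of the oligodendrocyte lineage stood near that share. Those of inhibitory neurons and microglia stood below it, and the pan-neuronal and astrocyte lists above it. The excitatory markers without a peak in both libraries included Slc17a7, which encodes a vesicular glutamate transporter, and the inhibitory ones Gad1 and Gad2, which encode GABA-synthesising enzymes. None of the 138 listed autosomal genes lay in a closed window, which is also near the share of all genes. By number of peaks per window the lists did not separate by tissue, with medians of 18.5 in replicate 1 and 20.5 in replicate 2 for excitatory neurons, and 23.5 and 25.5 for striated muscle.

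**Figure D1:**
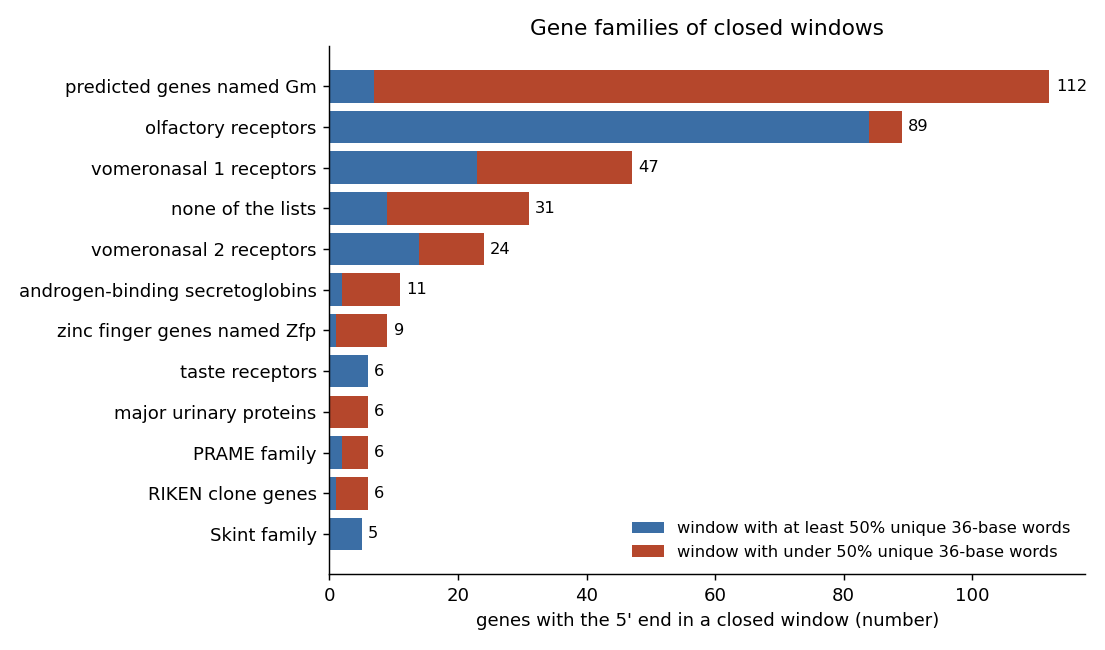
Number of genes with the 5′ end in a closed window, by family (families with at least 5 such genes). Bars are split by the percentage of the window's 36-base words that occur once in the genome, at least 50% in blue and under 50% in red. Of the olfactory receptors 84 of 89 fall in the first class, and of the predicted genes 105 of 112 in the second.

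Closed windows differed widely in how much of their sequence occurs elsewhere in the genome. A 36-base word was called unique when it occurs once in the genome on either strand, as a measure of where a short read can be placed. The length of the reads is not stated by any source used here. The median closed window had 22.0% unique words, against 91.4% in the other gene windows. With 76-base words the medians were 31.6% and 96.4%. Unread sequence (N) made up over 10% of 14 closed windows. Without these, 97 closed windows remained, with a median of 35.9% unique 36-base words. Of the 111 windows, 66 had under 50% unique words (median 3.29%) and 45 had at least 50% (median 72.9%).

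Families were divided between these classes. Olfactory receptors lay almost wholly in windows with at least 50% unique words, with 84 of 89 genes and 13 of 14 windows. The 6 taste receptors and 5 Skint genes of closed windows did so too. Predicted Gm genes lay mostly in windows with under 50% unique words, with 105 of 112 genes, as did all 6 major urinary protein genes and 9 of 11 secretoglobins. Genes with a vomeronasal 1 receptor symbol were divided almost evenly, with 24 in windows under 50% and 23 in the others. Families were assigned by symbol, so a receptor copy with a Gm symbol counts as a Gm gene. Gm10666 and Vmn1r93, for example, had the same length (966 bp) and GC content within 500 bp of the start (38.4%). How many Gm genes are receptor copies was not tested, and the shares given here depend on it. In the 45 windows with at least 50% unique words, chemosensory receptors made up 128 of 168 genes (76.2%), against 39 of 201 genes (19.4%) in the other 66. Genes with Gm or RIKEN names made up 4.76% and 54.7% in the same order.

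The share of gene windows that were closed was 50% where under 10% of words were unique, 48 of 96 windows. It was 15.4% (10 of 65) from 10% to 25% and 8.51% (8 of 94) from 25% to 50%. From 50% to 80% it lay between 3.39% and 7.95%. Of 1274 windows with 85% to 90% unique words 1 was closed, and of 3963 with 90% or more none was. Reads that match several places may have been left out by the authors' processing, and their part in the missing peaks of repetitive windows was not tested.

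**Figure D2:**
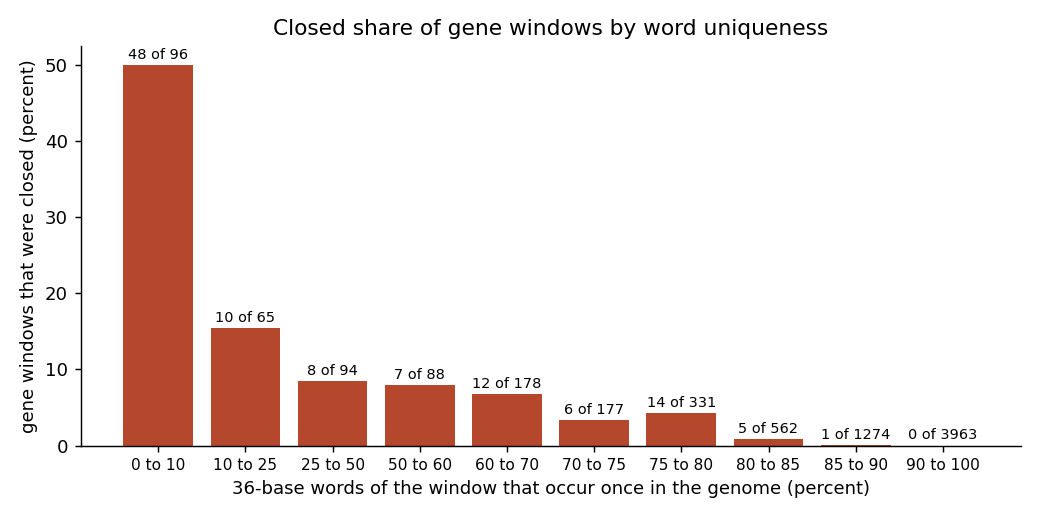
Percentage of gene windows that were closed (vertical axis) by the percentage of the window's 36-base words that occur once in the genome (horizontal axis). Numbers above bars give closed windows of all windows in the band. The share is 50% in the lowest band and 0 in the highest.

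In other features of sequence the closed windows were poorer in GC and richer in repeats. Their median GC content was 40.2%, against 43.3% in the other gene windows, and repeats covered a median of 55.1% against 30.1%. The 45 windows with mostly unique words had the lower GC content, 38.7%, against 40.9% in the other 66. Closed windows held a mean of 3.32 protein-coding genes, against 3.04. They held 3.30 annotated pseudogenes, against 1.13, and 0.306 long non-coding RNA genes, against 1.35. These traits were not particular to closed windows. The 77 gene windows with 1 peak in all had a median GC content of 38.8% and a median of 53.4% repeats. They held means of 3.83 pseudogenes and 0.260 long non-coding RNA genes. Other windows with under 50% unique words had 50.5% repeats and 3.93 pseudogenes. The closed window with the most genes held 11.

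Closed windows were unevenly spread over the genome. Chromosome 7 held 37 of the 111, or 7.55% of its gene windows, and 110 of the 369 genes. Chromosome 4 held 16 (3.68%), chromosome 14 held 10 (3.29%) and chromosome 17 held 8 (2.77%). Chromosome 2 held 11 (2.01%) and chromosome 5 held 10 (2.21%), near the 1.63% of all gene windows. Chromosomes 3, 10, 15 and 18 held none of their 399, 355, 266 and 227 gene windows. Adjacent closed windows formed 69 runs with a mean length of 1.61 windows, of which 49 were single windows and 62 windows (55.9%) stood in runs of 2 or more.

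The longest run lay on chromosome 5 (94200001 to 95800000) and spanned 8 windows. It held 21 genes, of which 17 were Gm genes, beside AA792892, D5Ertd577e and RIKEN clone genes. The stretch with no peak in either library extended over 1.80 Mb (94007587 to 95810960), with 0.05 Mb of unread sequence (N), and 5.64% of the run's words were unique. The next run, on chromosome 2 (175200001 to 176600000), spanned 7 windows and 19 genes, with the 5 Zfp genes above, and 0.000220% of its words were unique. Its peak-free stretch was 1.53 Mb long, of which 0.35 Mb is unread sequence (N) in which no peak can lie.

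A run of 5 windows on chromosome 4 (41800001 to 42800000) held 22 genes. They included Ccl19, Ccl21a and Ccl21b, which encode ligands of the chemokine receptor CCR7 that guide T cells and dendritic cells to lymph nodes. They also included Ccl27b, the interleukin-11 receptor gene Il11ra2 and Fam205a2, Fam205a3 and Fam205a4. Of its words 2.91% were unique. On chromosome 7, 2 runs of 4 windows held arrays of vomeronasal 1 receptors. The first (20000001 to 20800000) had 12 genes named as such receptors among 23 and 7.36% unique words. The second (21400001 to 22200000), which includes the upstream sequences printed above, had 9 genes so named among 17 and 0.469% unique words. A run of 3 windows on chromosome 14 (5200001 to 5800000) held 11 Gm genes with 0.348% unique words.

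The other 4 of the 10 longest runs consisted mostly of unique sequence. The tenth was taken from 11 runs of 2 windows as the one with the most genes, and unique words made up 0.295% to 78.6% of those 11, with 6 under 50%. On chromosome 17 (20200001 to 20800000) 3 windows held 6 vomeronasal 2 receptors, 5 vomeronasal 1 receptors and the formyl peptide receptor gene Fpr-rs3, with 81.9% unique words. On chromosome 4 (112000001 to 112600000) 3 windows held Skint1, Skint2, Skint3, Skint4 and Skint9, with 74.8% unique words. On chromosome 7 (41800001 to 42400000) 3 windows held Vmn2r58, Vmn2r59, Vmn2r60 and Vmn2r61, with 66.5%. On chromosome 19 (13200001 to 13600000) 2 windows held 12 olfactory receptors, with 75.6%.

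The 3 windows with at least 9 genes were olfactory receptor arrays. The window on chromosome 9 (38400001 to 38600000) held 11 olfactory receptors, among them Olfr147 and Olfr901, with 79.7% unique words. It had no base at an FDR under 0.05 in either library, and the nearest peak lay 86201 bp from its edge. On chromosome 2, the window at 36800001 held 9 olfactory receptors and the window at 89200001 held 8. The window at 108000001 on chromosome 7 also held 9, and the one at 13400001 on chromosome 19 held 8. The other window with 8 genes, on chromosome 7 (20400001 to 20600000), held 4 vomeronasal 1 receptors and 4 Gm genes. Across all 111 windows the nearest peak of either library lay at a median of 55289 bp from the window's edge, with a lowest distance of 2549 bp and a highest of 792414 bp.

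The largest genes that start in closed windows were not all receptors. The longest was Ccdc7a on chromosome 8 (128734235 to 129065517), a coiled-coil gene of 331283 bp, whose neighbour Ccdc7b spanned 116599 bp. Gm3005 (166118 bp) and Cphx3 (153448 bp) on chromosome 14, Gm16867 (139859 bp), Gm2163 (123187 bp) and 4930578G10Rik (110704 bp) followed. Skint4 (96061 bp), Skint2 (95055 bp) and Vmn2r60 (88439 bp) completed the 10. The median closed gene was 5852 bp long, against 17986 bp for the other genes.

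Few bases with a significant cut rate lay inside closed windows. The authors' FDR files list bases with an FDR of the cut rate under 0.05, and touching entries were joined here into runs. These runs covered 0.00181% of the closed bases in replicate 1 and 0.00448% in replicate 2, a mean of 0.00315% ± 0.00189 (SD, n = 2). In the other gene windows they covered 2.32% and 2.71%. At over 1 kb from any peak, the same windows had 0.00761% and 0.00840%. The closed windows with at least 50% unique words had 0.00338% and 0.00964%, and those under 50% had 0.000646% and 0.000637%. No deposited footprint and no peak of the authors' stricter list lay in a closed window.

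**Figure D3:**
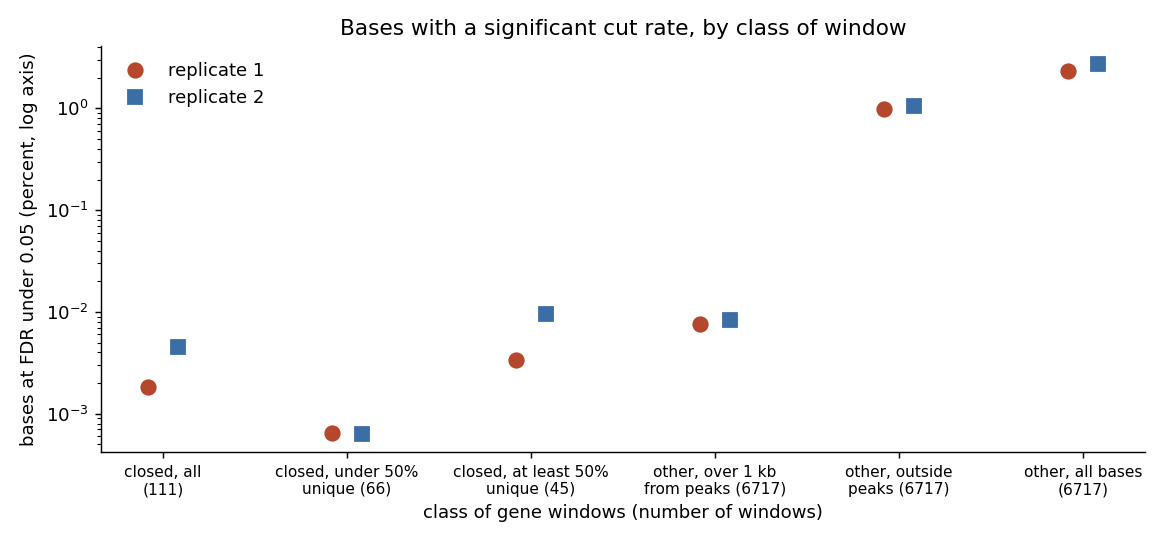
Percentage of bases at an FDR under 0.05 (vertical axis, log scale) in classes of gene windows (horizontal axis, with the number of windows), with 1 point per library. Closed windows with at least 50% unique words lie at 0.00338% and 0.00964%. The other windows at over 1 kb from peaks lie at 0.00761% and 0.00840%, higher in replicate 1 and lower in replicate 2. Both classes lie far below all bases of the other windows.

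Replicate 1 had 19 runs of 382 bases in all and replicate 2 had 64 runs of 945 bases. The longest were 47 and 46 bases, and the lowest FDR was 0.0177 and 0.00842. No run of replicate 1 overlapped a run of replicate 2. Over all autosomes, 54.5% of the runs of replicate 1 overlapped one of replicate 2, and 37.1% the other way round. Outside peaks these shares were 33.0% and 24.3%. Closed windows hold no peak by the rule, and sequence outside peaks includes their edges. In the other gene windows 0.985% and 1.05% of bases outside peaks had an FDR under 0.05. At over 1 kb from peaks these values were 0.00761% and 0.00840%. Overlap was not counted at that distance, so nothing is read from its absence in closed windows.

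Of the 111 windows, 71 had no run in either library and 13 had runs in both. Of the 40 windows with a run, 31 had at least 50% unique words. Replicate 2 had more FDR bases than replicate 1 in 29 windows and fewer in 11. Of the 14 windows led by olfactory receptors 4 had no run in either library.

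The window with the most FDR bases lay on chromosome 7 (18000001 to 18200000) and held Ceacam12, Ceacam13 and Igfl3, genes for cell adhesion and a growth-factor-like peptide. It had 12 bases in replicate 1 and 105 in replicate 2. The next, on the same chromosome (26200001 to 26400000), held Vmn1r184 and Cyp2a4, a steroid hydroxylase gene, with 0 and 80 bases. The Skint3 window followed with 0 and 64. The window of Gm5346 and Adam34 on chromosome 8 (43600001 to 43800000) had similar numbers in both libraries, 29 and 31 bases, in different places. The olfactory receptor window on chromosome 11 (73400001 to 73600000) had 18 and 44 bases, and the PRAME window of chromosome 4 (144200001 to 144400000) 47 and 5.

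**Figure D4:**
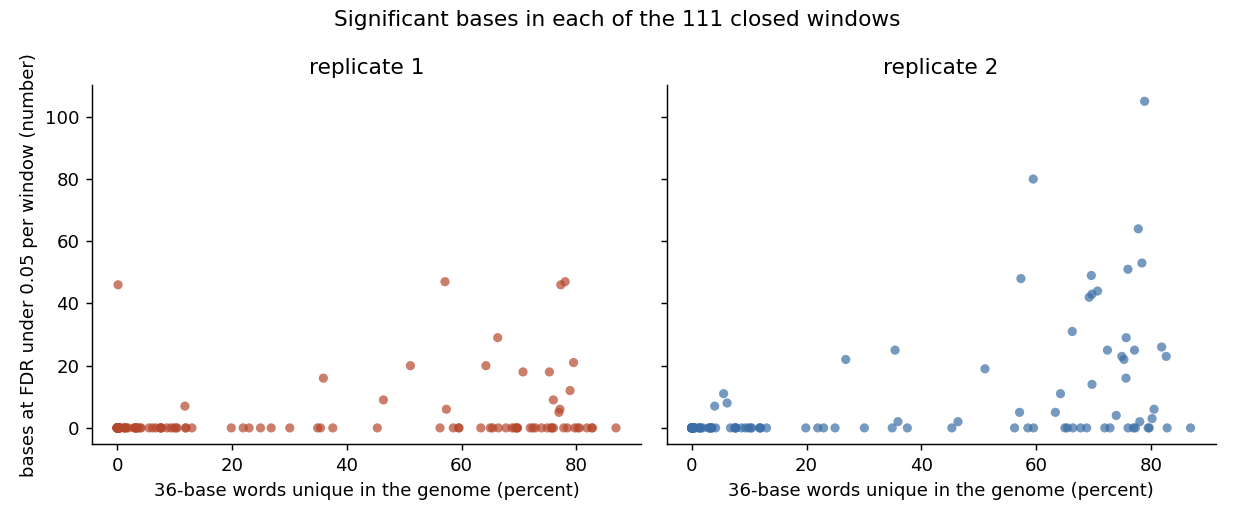
Bases at an FDR under 0.05 in each closed window (vertical axis) against the percentage of its 36-base words that occur once in the genome (horizontal axis), with 1 panel per library. Most windows sit at 0, and the highest counts are 47 in replicate 1 and 105 in replicate 2.

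Runs of at least 20 bases numbered 8 in replicate 1 and 19 in replicate 2. Of the 27, 25 lay in windows with at least 50% unique words, and in 15 every word was unique. Their median distance to the nearest gene start of the kind counted here was 14694 bp, and 6 lay within 5 kb. A run of any length lay within 500 bp of the start of 3 of the 369 genes. Gm3020 on chromosome 14 had 46 bases in replicate 1, ending 12 bp upstream of its start, in a window with 0.161% unique words. Vmn1r184 had 34 bases in replicate 2, 110 bp downstream of its start, and Gm13128 had 5 bases in replicate 2. No gene had such bases in both libraries, whereas 60.8% of the genes of other windows did. Closed windows hold no peak by the rule, so this contrast is largely fixed by the choice of windows. Among olfactory receptors of other windows the share was 0.674%.

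Annotated start sites in closed windows were poor in CpG. The ratio of observed to expected CpG within 500 bp of the start had a median of 0.114, against 0.577 for genes of the other windows. It was under 0.4 for 354 of 369 genes (95.9%), against 38.1%. Olfactory receptors in closed windows had a median of 0.103, against 0.106 for olfactory receptors elsewhere. Most words around their starts were unique in the reference genome, with a median of 99.3%, against 98.8% for the others. How reads were placed there was not tested.

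The 15 genes with a CpG ratio of at least 0.4 were of another kind. In 14 of them under 10% of the words around the start were unique, and in 11 no word was. Among them were Entpd4b, a nucleotide hydrolase gene, Tmem254c and Plac9b, and Gm genes of chromosome 14, which held 10 of the 15. The exception was Zfp936, with 68.9% unique words. Conversely, in the 122 genes with at least 90% unique words around the start the highest ratio was 0.269. No start in a closed window had both a ratio of at least 0.4 and at least 90% unique words.

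**Figure D5:**
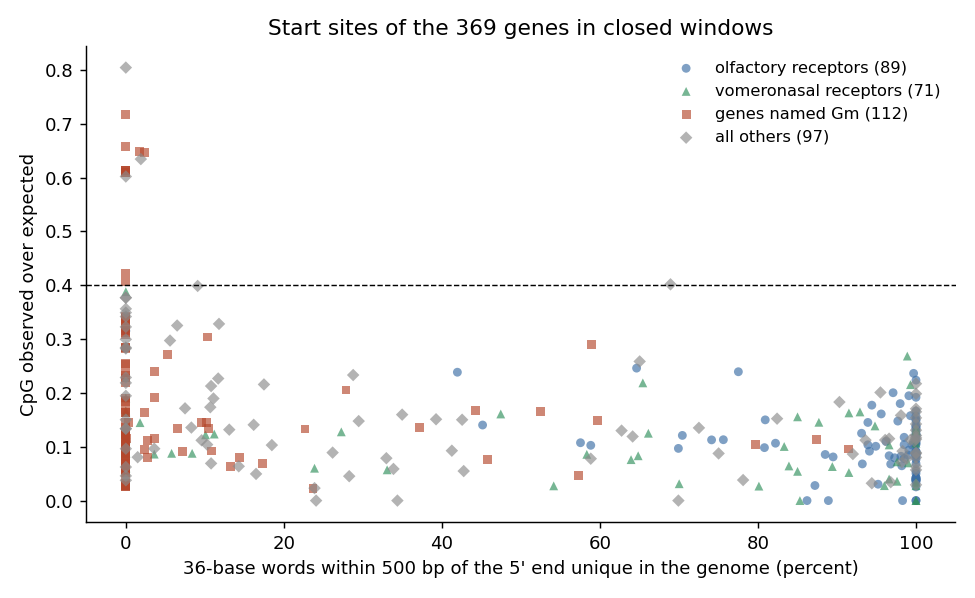
Observed over expected CpG (vertical axis) against the percentage of unique 36-base words (horizontal axis) within 500 bp of the start, for the 369 genes of closed windows. The dashed line marks 0.4. Above it lie 15 genes, of which 14 have under 10% unique words, against 152 of all 369.

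The rule has a threshold of 0 peaks, and 77 gene windows held exactly 1 peak, 28 in replicate 1 and 49 in replicate 2. These peaks were weak. Their median signal stood at percentile 1.17 of all peaks of replicate 1 and 0.147 of replicate 2. Olfactory receptors led 17 of the 77 windows, vomeronasal 2 receptors 12 and Gm genes 11. FDR runs covered 0.0272% and 0.0454% of their bases. The closed set itself depends on both libraries: 245 gene windows had no peak in replicate 1, whose list has 115699 peaks, and 160 none in replicate 2, whose list has 167829. The number of windows without a peak averaged 202.5 ± 60.1 per library (SD, n = 2), and 111 were common to both.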

How the data were processed

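DNase-seq peaks, footprints and FDR runs of 2 hippocampal libraries were analysed. Per the deposited file listings, the authors made every file from the filtered mm10 alignment of a single library, without pooling. No aligner or caller is named in those sources. The authors deposited 2 peak lists per library, whose signal values are on a scale that is not stated, so the depth in reads is unknown. The longer list was used. The deposited FDR values are q-values of the cut rate, listed only under 0.05. Touching entries were joined into runs, and each run was given its lowest q-value. The deposited footprints carry a constant score, and only their positions were used.

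Windows of 200 kb started at position 0 of chromosomes 1 to 19 of GRCm38.p6, the assembly that mm10 names. A window was closed when no peak overlapped it by 1 bp. Gene 5′ ends came from GENCODE M21, which types some genes with pseudogene symbols as protein-coding. Starts of genes are these annotated 5′ ends, and whether they are transcription starts was not tested. Families were assigned by symbol. Uniqueness was counted over all words of 36 or 76 bases of chromosomes 1 to 19, X and Y, on both strands. FDR percentages are of bases other than N. Python 3.11.15, numpy 2.4.6, pandas 2.3.3, numba 0.67.0 and matplotlib 3.10.9 were used, and the window and word counts were tested on simulated data.

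No test was run, since every measurement comes from the reads that chose the windows. The windows, families and gene lists were chosen with earlier results of these data known. The text names families with at least 5 genes in closed windows, the 10 longest runs, windows among the 10 with most genes or most FDR bases, the 10 longest genes, and up to 6 sequences from those windows. No gene met a further rule, an FDR run of at least 20 bp within 500 bp of the start in both libraries. Other genes named were picked for their window or family.

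Alternatives were the shorter lists, each library alone, equal numbers of peaks, other window sizes and offsets, peak centres, transcript starts, windows rich in N or in repeated words left out, 76-base words, a stricter FDR and longer runs.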

Additional observations from a re-analysis of the deposited data

How the results depend on the processing

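No paired analysis was possible because there is a single group and no test. The number of closed windows was 111, and it was 288 with the shorter peak lists, 210 with equal numbers of peaks, 366 with 100-kb windows, 10 with 500-kb windows and 45 without windows under 50% unique words. It was 160 without replicate 1 and 245 without replicate 2. The number of genes was 369, and 996 with the shorter lists, 777 with equal numbers, 798 and 66 with 100-kb and 500-kb windows, and 546 without replicate 1 and 910 without replicate 2. Olfactory receptors made up 24.1% of genes, and 38.0% with equal numbers, 0% with 500-kb windows, 50% without windows under 50% unique words and 26.2% to 39.5% with a library left out. Mean run length was 1.61 windows, and 2.12 with the shorter lists, 1.25 with 500-kb windows and 1.55 to 1.84 with a library left out. FDR bases were 0.00315%, and 0.0474% with the shorter lists, 0.0367% with equal numbers, 3.80e-05% at an FDR under 0.01 and 0.0416% to 0.0682% with a library left out. Median GC was 40.2%, and 39.4% with equal numbers and 39.1% to 40.1% with a library left out. Median unique words were 22.0%, and 56.2% with the shorter lists, 63.4% with equal numbers, 53.5% with 100-kb windows and 28.2% to 66.8% with a library left out. The sets with shorter lists, equal numbers or a library left out also take in windows that hold peaks under the main rule. With the shorter lists 111 of the 288 windows were those of the main set. The causes of these shifts were not tested. A further 47 values, some of those with a library left out among them, moved by less than the limits set for each. Depth in reads is unknown, so a window without a peak shows none at this depth and not that its chromatin is closed in every cell.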
